A study of Homo sapiens with 18 samples.

Results

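The H3K27ac and CTCF peaks at 10 genes of the epithelial to mesenchymal transition (EMT) were compared between untreated and valproic acid treated HEK293T cells. The genes were chosen by name and by role, and comprised the epithelial genes CDH1 and EPCAM, the mesenchymal genes CDH2, VIM and FN1, and the transcription factor genes ZEB1, ZEB2, SNAI1, SNAI2 and TWIST1. They are 10 of the 19111 protein-coding genes annotated on chromosomes 1 to 22. A peak was assigned to a gene when it shared at least 1 bp with the gene body or the 10 kb on either side of it, which gave 313 of the 506359 peaks in the 12 peak lists.

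The chromatin came from HEK293T, a transformed human embryonic kidney cell line that carries the SV40 large T antigen. Control cells (CTRL) were untreated, and treated cells (VPA) were grown with 1 mM valproic acid, a histone deacetylase inhibitor, for 1 day. Chromatin immunoprecipitation followed by sequencing (ChIP-seq) was carried out with an antibody against histone H3 acetylated at lysine 27 (H3K27ac) and with one against CTCF. Each antibody had 3 replicates per treatment. The labels do not say whether replicates of the same number shared chromatin between the antibodies. Of the 18 samples, the 6 input libraries were not analysed here. The labels do not say whether replicates were separate cultures, so the tests measure only the spread between these samples, which may be technical.

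EMT is the process by which epithelial cells lose their lateral junctions and polarity and acquire a motile, mesenchymal form, as in gastrulation, neural crest delamination and tumour invasion. The zinc finger proteins of the SNAI and ZEB families and the basic helix-loop-helix protein TWIST1 bind E-box elements, and SNAI and ZEB proteins repress CDH1 and other junction genes through them. H3K27ac marks active promoters and enhancers and is removed by histone deacetylases, whereas the zinc finger protein CTCF holds the bases of chromatin loops and insulates neighbouring domains.

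The H3K27ac lists held 26299 to 40992 peaks and the CTCF lists 36469 to 58782 peaks. The values used below are the number of peaks, the bases of a locus that they cover, the fold enrichment at each summit over its local background, and the summit pileup, which is the number of fragments stacked at the summit. The lists do not state the total number of fragments per library. The genome-wide background coverage read from them was close in all 12 libraries, between 3.51 and 3.95 fragments. The smallest pileup called was 11 or 12 fragments, so a site below that height cannot be seen in these data. Where the local background is higher, a taller site can also go uncalled. Its median over called peaks was 22.3 fragments in H3K27ac CTRL replicate 1 and 8.82 to 9.94 in the other H3K27ac libraries. No spike-in is named, so every level is relative to its own library, and in a population of cells fewer cells carrying a mark and less of it per cell cannot be told apart. The H3K27ac lists were checked against marker genes. The promoters of ACTB, GAPDH, PAX2, LHX1, NEFM and NEFL, which are housekeeping genes or genes known to be active in HEK293 cells, carried a peak in all 6 lists. Those of PTPRC, ALB, PECAM1 and KRT14, which mark leukocytes, hepatocytes, endothelium and basal keratinocytes, carried none in any list, and that of the muscle gene MYOD1 carried one in 0 CTRL and 2 VPA lists.

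CDH1 and EPCAM, the 2 epithelial genes, had more H3K27ac peaks in every VPA list than in any CTRL list. The peak numbers of the mesenchymal and transcription factor genes were equal or overlapped between treatments. No split by role is read from this. In the wider gene list given below, 1 of 16 epithelial and 4 of 11 mesenchymal genes were higher. Summed over the 10 loci, the 3 CTRL lists held 19, 25 and 26 H3K27ac peaks and the 3 VPA lists 26, 33 and 34. A gene was called higher when every VPA list exceeded every CTRL list. By that rule 2 of the 10 genes, CDH1 and EPCAM, were higher in peak number and 0 were lower, beside 12.2% of the 16041 genes with an H3K27ac peak that were higher and 0.175% that were lower. The share of members is therefore near that of all genes. The mean was higher in VPA at 6 of 10 genes, beside 64.6%. Samples with the same replicate number deviated together for H3K27ac, although CTRL replicate 2 did not correlate best with VPA replicate 2, so the pairing is uncertain. Within the 3 same-numbered pairs VPA exceeded CTRL in every pair at 4 of the 10 genes (CDH1, EPCAM, VIM and SNAI1), beside 19.3% of all genes. VPA fell short of CTRL in every pair at 0, beside 0.368%. With each list cut to its 26299 most significant peaks, 1 gene, CDH1, was higher, beside 1.93% of all genes, and 1, ZEB2, was lower, beside 1.26%.

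The length covered by H3K27ac was compared in the same way. Over the 10 loci it came to 39499 ± 6882 bp in CTRL against 51607 ± 9675 bp under VPA (mean ± SD, n = 3), and the mean was higher in VPA at 9 of 10 genes, beside 94.3%. CDH1, EPCAM and VIM were higher in every VPA list than in every CTRL list, which is 3 of the 10 genes beside 31.6% of all genes, and 0 genes were lower beside 0.187%. Within same-numbered pairs 7 of 10 were higher, beside 73.7%, and 0 lower, beside 1.17%. The VPA replicate 1 library had the shortest summed length of the VPA lists, and without it 8 of 10 genes were higher, beside 75.8%. For a single gene the exact permutation test over 3 against 3 lists cannot give a p below 0.1.

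**Figure D1:**
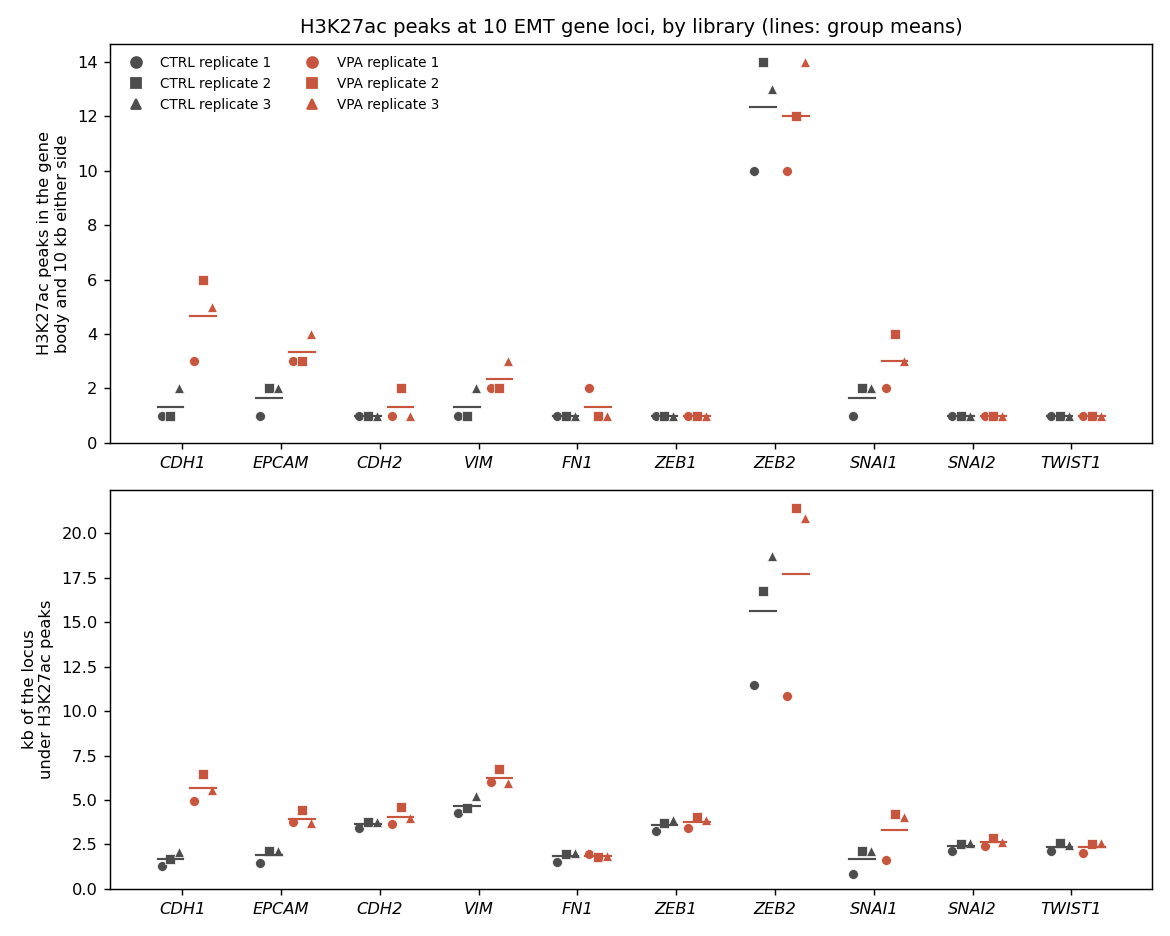
H3K27ac peaks (upper panel, number per list) and covered length (lower panel, kb per list) in the body and 10 kb either side of each EMT gene. Each point is 1 library, with CTRL in grey and VPA in red, symbols mark the replicate number, and short lines are means of 3 libraries. The VPA points lie above all CTRL points at CDH1 and EPCAM in both panels and at VIM in the lower one, whereas ZEB2 has 10 to 14 peaks in both treatments.

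CDH1 (ENSG00000039068, chr16:68737292-68835537 on hg38, forward strand) encodes E-cadherin, the adhesion protein of epithelial junctions. Its locus held 1, 1 and 2 H3K27ac peaks in CTRL replicates 1 to 3 and 3, 6 and 5 in VPA replicates 1 to 3. The means were 1.33 ± 0.577 and 4.67 ± 1.53 (± SD, n = 3, exact permutation test, two-sided p = 0.1, the smallest possible). The covered length went from 1311, 1703 and 2078 bp to 4955, 6484 and 5560 bp, or from 1.44% to 4.79% of the locus on average. The groups did not overlap in either measure. Over the gene body alone they overlapped in peak number, with a mean difference of 2.33 peaks against 3.33.

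The additional CDH1 peaks lay at weak sites, mostly away from the start site. Of the 38 merged H3K27ac regions at the 10 loci, 17 had a peak in all 6 lists, beside 33.2% of all 55382 regions. A further 2 had a peak in all 3 VPA lists and in no CTRL list, beside 4.12% of all regions, and both lay at CDH1. The first, at chr16:68731607-68733134, had its summit 4.92 kb upstream of the start site, between genes, with pileups of 62, 53 and 52 fragments in the VPA libraries. The second, at chr16:68799796-68801454, lay in an intron 63.4 kb downstream and had pileups of 32, 42 and 32 fragments. Without VPA replicate 1, which had 26 peaks at these loci against 33 and 34 in the other VPA lists, 5 regions were found in VPA alone, beside 11.2% of all regions, namely these 2, another CDH1 region 4.43 kb downstream of the start, a ZEB2 intron region and a SNAI1 region 8.64 kb downstream. No region at the 10 loci had a peak in all CTRL lists and no VPA list, beside 0.139% of all regions.

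The CDH1 promoter itself was weakly marked in both treatments. A region with its summit 365 bp downstream of the start site was called in CTRL replicate 3 with a pileup of 43 fragments and in VPA replicates 2 and 3 with 41 and 44 fragments. The called heights were alike, and the peak was missing from 2 CTRL lists and 1 VPA list. The only region of the locus present in all 6 H3K27ac lists was the promoter of the neighbouring gene TANGO6, 106 kb downstream of the CDH1 start site, with pileups of 495, 376 and 332 fragments in CTRL and 385, 255 and 256 in VPA.

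**Figure D2:**
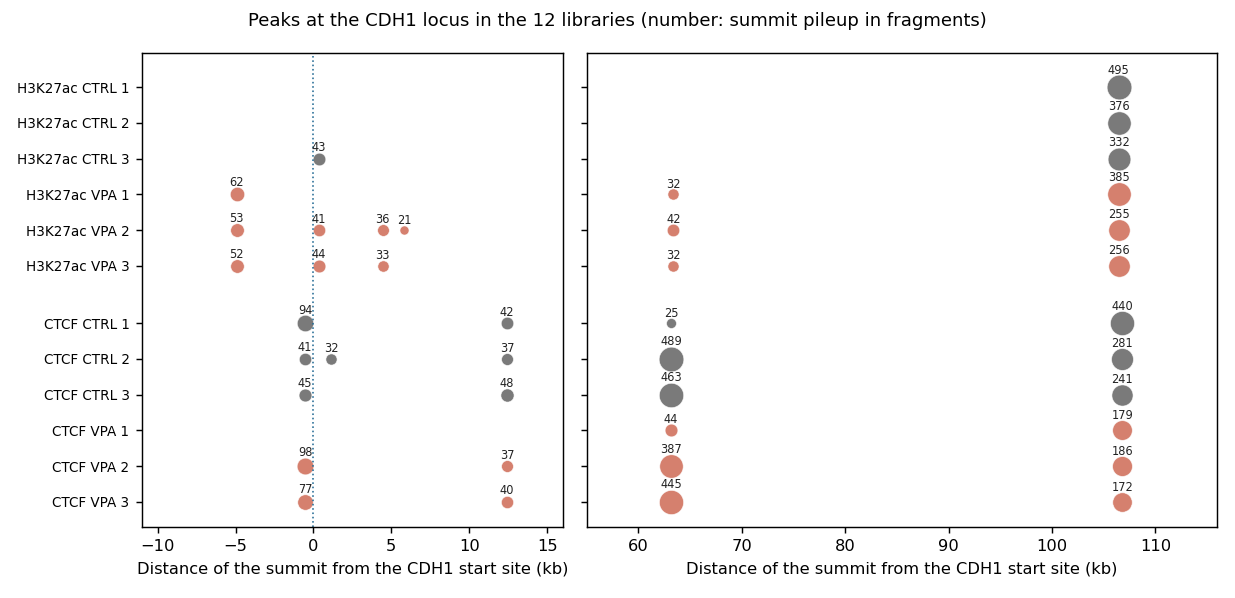
Peaks at the CDH1 locus in the 6 H3K27ac and 6 CTCF libraries. The x axis is the distance of the summit from the CDH1 start site in kb, in 2 windows, each row is a library, the dotted line is the start site, and the number at each circle is its summit pileup in fragments. H3K27ac peaks 4.92 kb upstream and 63.4 kb downstream appear in the 3 VPA rows (red) and in no CTRL row (grey), and the second coincides with a CTCF peak called in all 6 CTCF rows.

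EPCAM (ENSG00000119888, chr2:47345158-47387601, forward strand) encodes an epithelial cell adhesion molecule. Its locus held 1, 2 and 2 H3K27ac peaks without treatment against 3, 3 and 4 under VPA, and the covered length was 1450, 2157 and 2133 bp against 3746, 4410 and 3720 bp. The groups did not overlap in either measure (exact permutation test, two-sided p = 0.1 for each). The groups overlapped in peak number at equal list lengths and with 50 kb either side, where the mean differences were 1 and 1.33 peaks against 1.67. The strongest region lay at the 5′ end of the annotated gene body, 23.95 kb upstream of the canonical start site, with pileups of 92, 131 and 106 fragments in CTRL and 122, 120 and 124 in VPA. These ranges overlapped. A weaker region 13.8 kb upstream of the canonical start had 41 and 36 fragments in CTRL replicates 2 and 3, no peak in CTRL replicate 1, and 25, 39 and 40 fragments in VPA. The canonical promoter carried a peak in VPA replicate 3 alone, with 30 fragments.

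Among the mesenchymal genes, the strong promoter peaks of CDH2 and VIM were lower in every VPA library, while the weaker FN1 peak was not. Lower pileups were general among strong peaks. In the strength bin of CDH2 and VIM (the strongest of 10, described below), 98.2% of regions had a median-centred log2 change below 0. That is another measure than being lower in every VPA library, for which the share of all regions was not computed. CDH2 (ENSG00000170558, chr18:27932879-28177946, reverse strand) encodes N-cadherin, the cadherin of neural and mesenchymal cells. It had 1 H3K27ac peak in each list except VPA replicate 2, which had 2. The summit pileup at its promoter was 1027, 688 and 618 fragments in CTRL and 554, 370 and 357 in VPA, so every VPA library was below every CTRL library.

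VIM (ENSG00000026025, chr10:17227991-17228240 for the 250 bases before its start site) encodes vimentin, the intermediate filament protein of mesenchymal cells. H3K27ac peaks numbered 1, 1 and 2 against 2, 2 and 3 under VPA. The added peak was a region 7.62 kb upstream of the start, called in CTRL replicate 3 with 24 fragments and in the 3 VPA libraries with 35, 50 and 40 fragments. Covered length was 4274, 4573 and 5222 bp without treatment against 6021, 6764 and 5933 bp with it. The promoter summit had 943, 866 and 767 fragments in CTRL against 617, 457 and 442 under VPA. Over the gene body alone, without the 10 kb on either side, the mean difference in covered length fell from 1550 to 140 bp and the groups overlapped. With the flanks, every VPA library had more covered length at VIM and a lower promoter summit than any CTRL library.

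FN1 (ENSG00000115414, chr2:215360440-215436073, reverse strand) encodes fibronectin, an extracellular matrix glycoprotein. Its promoter region had pileups of 180, 149 and 130 fragments in CTRL and 211, 158 and 158 in VPA. These ranges overlapped, and each VPA library was above the CTRL library of the same number. The covered length, 1835 ± 271 bp against 1871 ± 87.7 bp under VPA, differed by less than the spread between replicates.

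The upstream sequences of these 3 mesenchymal promoters are shown because H3K27ac was lower in every VPA library at CDH2 and VIM and overlapped between treatments at FN1. They are the 250 bases before the start site, or the part of them that no annotated transcript includes in an untranslated region, read from RefSeq promoters (hg38) 5′ to 3′ on the gene's strand. Capitals mark GC boxes, the Sp1 element GGGCGG on either strand, of which overlapping matches were counted separately.
VIM chr10:17227991-17228240 (+): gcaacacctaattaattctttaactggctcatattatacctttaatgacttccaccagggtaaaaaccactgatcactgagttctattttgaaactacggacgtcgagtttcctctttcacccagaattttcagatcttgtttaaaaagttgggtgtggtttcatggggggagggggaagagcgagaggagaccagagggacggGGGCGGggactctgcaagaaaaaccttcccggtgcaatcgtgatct
CDH2 chr18:28177131-28177380 (-): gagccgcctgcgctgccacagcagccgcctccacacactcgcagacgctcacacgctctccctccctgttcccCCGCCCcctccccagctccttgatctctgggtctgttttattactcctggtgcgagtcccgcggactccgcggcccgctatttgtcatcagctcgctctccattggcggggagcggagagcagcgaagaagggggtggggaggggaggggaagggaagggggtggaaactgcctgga
FN1 chr2:215436074-215436318 (-): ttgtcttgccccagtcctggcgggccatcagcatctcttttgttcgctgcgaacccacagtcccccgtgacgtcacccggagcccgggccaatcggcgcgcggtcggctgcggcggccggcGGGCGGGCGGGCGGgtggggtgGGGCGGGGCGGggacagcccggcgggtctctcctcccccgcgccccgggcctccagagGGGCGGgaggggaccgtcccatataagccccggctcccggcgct
VIM and CDH2 held 1 GC box each in this window and FN1 held 6, while 42.6% of the 35116 promoters in the table held at least 1 and 13.9% at least 3. None of the 3 held the E-box CACCTG, which SNAI and ZEB proteins bind, on either strand, whereas 17.5% of all promoters did. Entries were found for 5 of the 10 genes, namely VIM, CDH2, FN1, ZEB1 and ZEB2. A match is a string of letters and not a measured site.

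The ZEB genes encode zinc finger and homeodomain repressors of CDH1, and both had lower promoter peaks in every VPA library. In the strength bin of the ZEB2 promoter 93.3% of regions had a median-centred log2 pileup change below 0, and in that of ZEB1 57.5%. Those shares are not of the same measure. The pileups given here are not centred, and centring takes out a median change of -0.24. The share of all regions lower in every VPA library was not computed. ZEB2 (ENSG00000169554, chr2:144364364-144521057, reverse strand) had by far the most H3K27ac peaks of the 10 loci, with 10, 14 and 13 in CTRL against 10, 12 and 14 under VPA. The number did not differ beyond the spread between replicates, 12.3 ± 2.08 against 12 ± 2 (exact permutation test, two-sided p = 1). Its covered length was 15635 ± 3739 bp against 17703 ± 5941 bp under VPA, and the VPA replicate 1 library, with 10850 bp, was the lowest of all 6.

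The broad promoter region of ZEB2 (chr2:144515587-144521168) had its summit 2.87 kb inside the gene, in an intron. The pileup there was 935, 603 and 561 fragments in CTRL and 361, 250 and 239 in VPA. The fold enrichment over local background was 21.2, 93.4 and 73.7 in CTRL and 8.42, 24.9 and 18.2 in VPA. The pileups did not overlap between treatments. In fold enrichment CTRL replicate 1 was below VPA replicate 2, as that number 1 library was the lowest within both treatments. The other 7 ZEB2 regions called in all 6 lists included a region 4.10 kb upstream, with pileups of 267, 197 and 199 against 190, 158 and 150 fragments, and intron and exon regions 9.51 to 88.6 kb downstream, each of 76 fragments or fewer in every library.

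ZEB1 (ENSG00000148516, chr10:31318495-31529814, forward strand) had 1 H3K27ac peak in every list. Its promoter pileup was 437, 291 and 297 fragments in CTRL and 245, 188 and 204 in VPA, with no overlap. ZEB1 has several annotated start sites, and 2 of the 7 RefSeq windows held an E-box. The window of the canonical start held 2 E-boxes, of which 1 lies in the stretch that no transcript includes in an untranslated region. That stretch is shown because it holds a match for the element that the ZEB and SNAI proteins themselves bind. Capitals mark the E-box CACCTG near the 5′ end and 1 GC box.
ZEB1 chr10:31318966-31319124 (+): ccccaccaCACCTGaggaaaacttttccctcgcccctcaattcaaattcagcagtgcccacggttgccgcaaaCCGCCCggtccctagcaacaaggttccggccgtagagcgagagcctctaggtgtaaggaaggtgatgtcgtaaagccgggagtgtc

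SNAI1 (ENSG00000124216, chr20:49982980-49988886, forward strand) encodes Snail, a zinc finger repressor of CDH1. It carried 1, 2 and 2 H3K27ac peaks without treatment against 2, 4 and 3 under VPA, and its covered length was 820, 2113 and 2158 bp against 1598, 4200 and 4069 bp. Each VPA value was above the CTRL value of the same number, but the groups overlapped. The promoter pileup was 137, 119 and 118 fragments in CTRL and 152, 125 and 126 in VPA, and a region 3.69 kb upstream had 70 and 51 fragments in CTRL replicates 2 and 3 and 107, 64 and 55 in VPA.

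SNAI2 (ENSG00000019549) encodes Slug, a repressor known from neural crest migration. It had 1 H3K27ac peak in every list, at its promoter, with 149, 117 and 121 fragments in CTRL and 179, 123 and 143 in VPA. TWIST1 (ENSG00000122691), which encodes a basic helix-loop-helix factor of mesoderm and neural crest, also had 1 peak in every list, at its promoter, with 469, 242 and 278 fragments in CTRL and 266, 198 and 152 in VPA. The ranges overlapped at both genes, although the VPA library was above the CTRL library of its number in all 3 pairs at SNAI2 and below it in all 3 at TWIST1. The annotated TWIST1 body used here is 96.6 kb long. CTCF regions counted at TWIST1 therefore include one in an intron 65.7 kb downstream of the start site.

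Thus 8 of the 10 genes had an H3K27ac peak within 1 kb of the canonical start site in all 6 lists, beside 61.0% of all 19111 genes, and the exceptions were the epithelial genes CDH1 and EPCAM. The plot of promoter pileups by library shows the strong promoters of CDH2, VIM, ZEB1 and ZEB2 lower in every VPA library. The ranges overlapped at FN1, SNAI1, SNAI2 and TWIST1. In all 3 same-numbered pairs VPA was above CTRL at FN1, SNAI1 and SNAI2 and below it at TWIST1. These pileups are not centred. The share of all regions that were lower in every VPA library was not computed, so the separation is not read as particular to these genes.

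**Figure D3:**
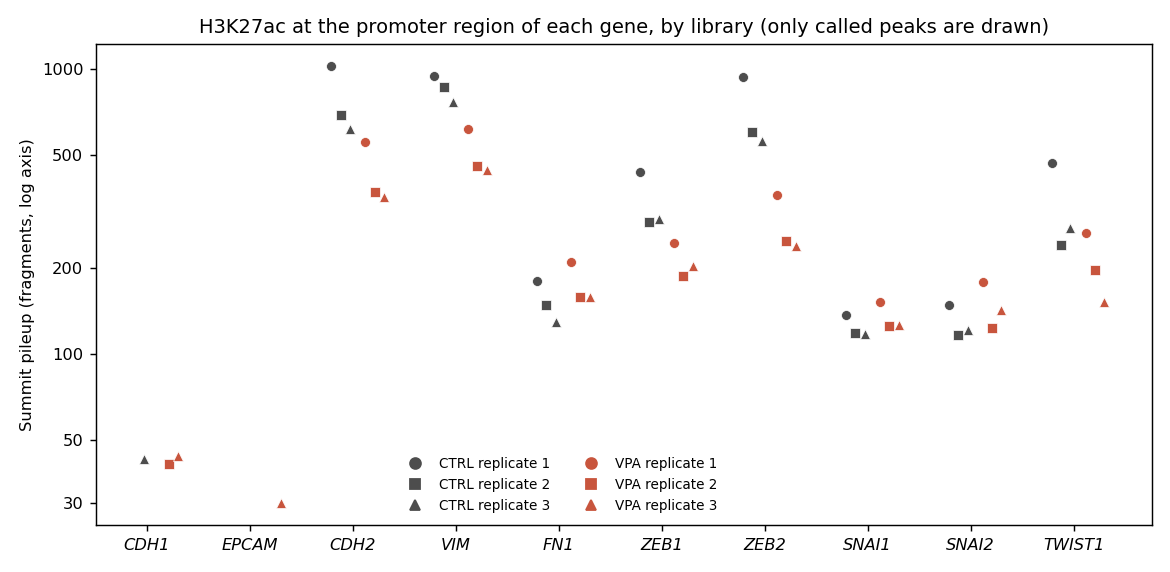
Summit pileup of H3K27ac, in fragments on a log axis, at the region that covers or lies within 1 kb of each gene's canonical start site. Each point is 1 library with a called peak there (CTRL grey, VPA red, symbol by replicate number). All VPA points lie below all CTRL points at CDH2, VIM, ZEB1 and ZEB2, and the CDH1 and EPCAM promoters were called in 3 libraries and in 1. The pileups are not centred, and the share of all regions separated in this way was not computed.

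These differences were tested with limma over all 18407 H3K27ac regions with a peak in all 6 lists, of which 17 lay at the 10 loci. On the log2 fold enrichment, centred on the median of each library, 0 regions passed a Benjamini-Hochberg adjusted p of 0.05 in either direction, which is 0% of all regions, and 1347 had an unadjusted p below 0.05. With the replicate number as a block, 6.87% of all regions were called higher and 6.08% lower, and of the 17 regions 1 was higher and 2 were lower. ZEB2 was lower by a log2 change of -1.67 ± 0.212 (SE, limma adjusted p = 0.00211), CDH2 by -0.81 ± 0.21 (adjusted p = 0.0246), and SNAI2 was higher by 0.81 ± 0.218 (adjusted p = 0.0283). The ZEB2 promoter had the lowest fold enrichment change of all 18407 regions, and in summit pileup it lay at percentile 0.353.

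On the log2 summit pileup over background coverage, also centred on the median, limma called 11.7% of all regions higher and 20.7% lower, and 3 of the 17 regions higher and 4 lower. The lower ones were the promoters of ZEB2 (-1.10 ± 0.128, adjusted p = 0.00653), CDH2 (-0.67 ± 0.129, adjusted p = 0.0150), VIM (-0.58 ± 0.0779, adjusted p = 0.00719) and ZEB1 (-0.48 ± 0.105, adjusted p = 0.0212). The higher ones were FN1 (0.39 ± 0.0689, adjusted p = 0.0119), SNAI2 (0.39 ± 0.0997, adjusted p = 0.0330) and SNAI1 (0.30 ± 0.0808, adjusted p = 0.0377). The 3 higher calls were lost in 2 other fits of the pileup. Without both replicate 1 libraries the limma adjusted p was 0.0858 at FN1, 0.283 at SNAI1 and 0.233 at SNAI2, while the 4 lower promoters kept their calls. Without the centring, which takes out a median change of -0.24, the same 4 promoters were lower, beside 12.3% of all regions, and 0 of the 17 were higher, beside 3.58%, with log2 changes of 0.15 at FN1, 0.15 at SNAI2 and 0.06 at SNAI1. The TWIST1 promoter changed by -0.47 ± 0.205 in centred pileup and did not pass (limma adjusted p = 0.13), and its fold enrichment change, -0.19, became 0.03 without VPA replicate 1.

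H3K27ac change was related to peak strength over the whole set of shared regions, and these promoters were read against it. Regions were divided into 10 equal bins by mean pileup over background. The strongest bin had a median log2 change of -0.45, with 98.2% of its regions below 0, and the weakest had 0.38. VIM (-0.58) and CDH2 (-0.67) belong to the strongest bin and lay below its median. ZEB2 (-1.10) belongs to a bin with a median of -0.32, and ZEB1 (-0.48) and TWIST1 (-0.47) to one with a median of -0.05. FN1 (0.39) belongs to a bin with a median of 0.06, and SNAI1 (0.30) and SNAI2 (0.39) to one with 0.19. These positions are a description and were not tested.

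**Figure D4:**
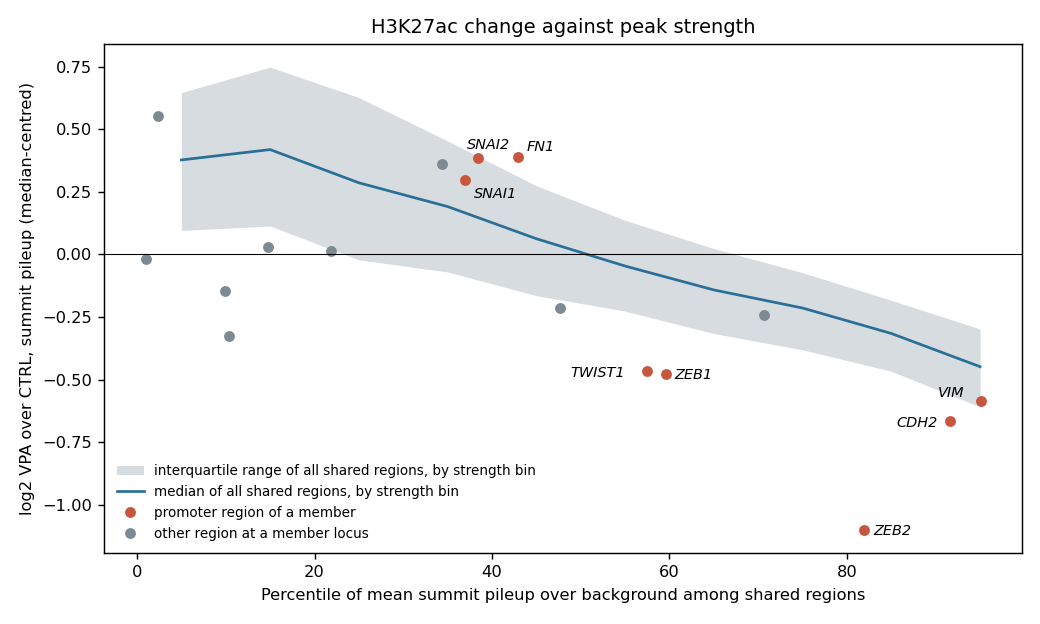
Change of H3K27ac against peak strength. The x axis is the percentile of mean summit pileup over background among the 18407 shared regions, the y axis the median-centred log2 ratio of VPA to CTRL pileup, the line the median and the band the interquartile range of all regions in each strength bin, red points the promoter regions and grey points the other regions of the EMT loci. The line falls from 0.38 to -0.45, and among the promoters ZEB2 (-1.10), CDH2 (-0.67), ZEB1 (-0.48) and TWIST1 (-0.47) lie below the band and FN1 (0.39) above it.

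CTCF peaks at the EMT genes did not separate the treatments. The loci held 20, 32 and 28 CTCF peaks without treatment against 16, 26 and 28 under VPA. In peak number 0 of the 10 genes were called higher, beside 0.396% of the 16926 genes with a CTCF peak, and 0 lower, beside 0.874%. The VPA mean was above the CTRL mean at 3 of 10 genes, beside 21.4%. In covered length 0 were called higher, beside 1.26%, and 0 lower, beside 1.86%, with the VPA mean above at 3 of 10, beside 35.6%. Single libraries moved these counts. Without CTRL replicate 1, ZEB1 was lower in peak number, beside 7.28% of all genes, and CDH1, CDH2, ZEB1 and ZEB2 in covered length, beside 22.2%. Without VPA replicate 1, VIM was higher in peak number, beside 2.26%, and TWIST1 in covered length, beside 10.9%, and without VPA replicate 3 CDH2 was lower in peak number, beside 2.01%. Of the 37 merged CTCF regions at the 10 loci 14 had a peak in all 6 lists, beside 39.7% of all 69985 regions. Over the 27794 such regions limma called 0 regions in either direction, which is 0% of all regions, and 83 had an unadjusted p below 0.05. The SE of the log2 change at the 14 regions was 0.642 to 0.665, so only large changes could have been called.

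The members differed widely in CTCF. SNAI1 had the strongest site, 3.82 kb upstream of its start, with pileups of 2816, 1387 and 1183 fragments in CTRL and 4576, 1482 and 1246 in VPA, and a second at its promoter with 1008, 529 and 452 against 1271, 456 and 338. Both were present in all 6 lists and overlapped between treatments. FN1 was at the other end, with 0, 0 and 1 peaks against 0, 1 and 1 under VPA, all at 1 weak site 6.63 kb upstream. A CTCF peak lay within 1 kb of the start in all 6 lists at 5 of the 10 genes (CDH2, VIM, SNAI1, SNAI2 and TWIST1), beside 24.9% of all genes. The CDH1 promoter had CTCF pileups of 94, 41 and 45 fragments in CTRL and 98 and 77 in VPA replicates 2 and 3, with no peak in VPA replicate 1.

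One CTCF region at the 10 loci had a peak in all 3 CTRL lists and in no VPA list, beside 0.326% of all regions, and 0 had the reverse, beside 0.186%. It was a weak site beyond the 3′ end of ZEB2 (chr2:144361584-144362299), with pileups of 17, 33 and 29 fragments. EPCAM was flanked by sites 34.0 kb upstream and 19.1 kb downstream of its canonical start. Their pileups were 350, 413 and 381 against 44, 427 and 345 fragments upstream, and 509, 536 and 465 against 145, 504 and 460 downstream. The VPA replicate 1 library stood far below the other 5 at both.

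Replicate 1 differed from the other replicates in the same way in many CTCF regions of these genes. Of the 6 regions at promoters, 5 were higher in replicate 1 than in the other replicates of both treatments, such as VIM with 303 against 136 and 141 fragments in CTRL and 449 against 163 and 108 in VPA. Of the 8 regions elsewhere, 5 were lower in replicate 1 in both treatments, such as the CDH1 intron site with 25 against 489 and 463 in CTRL and 44 against 387 and 445 in VPA. The same held in the whole set, where the median log2 difference of replicate 1 from the others was 1.40 over 4650 promoter regions and -0.76 over 23144 regions elsewhere. The part of this difference in the CTCF comparison was not tested. Without both replicate 1 libraries limma again called 0 of 45129 CTCF regions on summit pileup (0%), with 4614 at an unadjusted p below 0.05. The small log2 changes at the CDH2, SNAI1 and SNAI2 promoters turned to -0.07, -0.11 and -0.04. Larger changes in this fit were 1.22 at the CDH1 promoter and 0.96 at the TWIST1 promoter (limma adjusted p = 0.413 for each). The ZEB2 promoter went the other way, with -0.59 (limma adjusted p = 0.469).

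**Figure D5:**
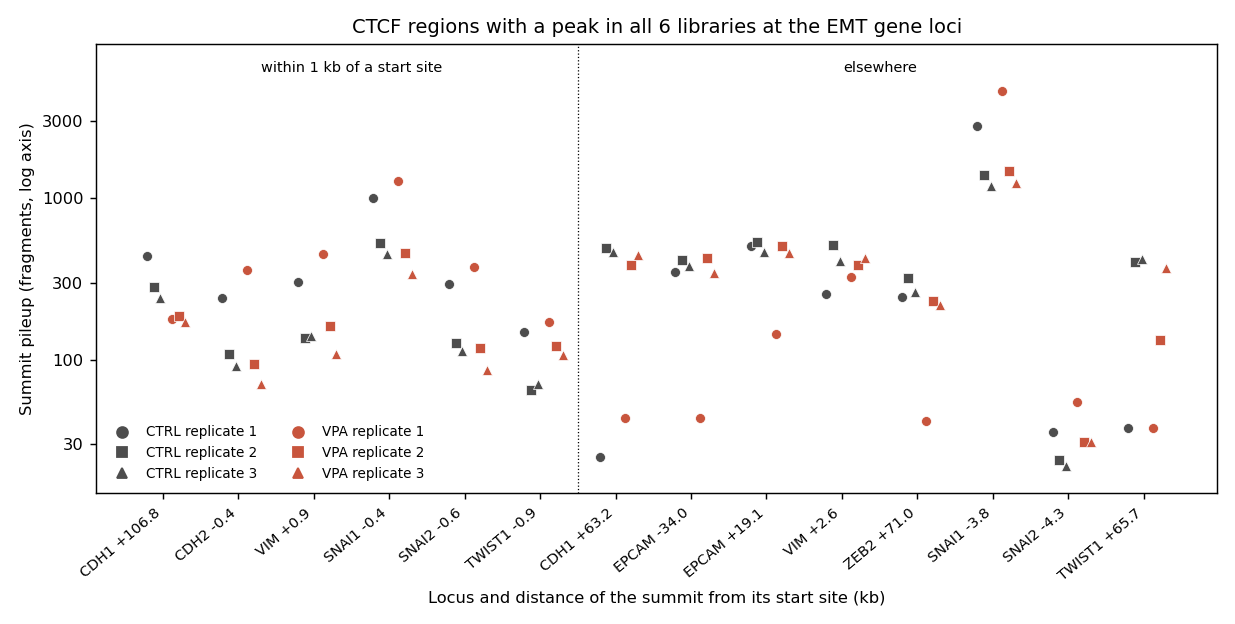
Summit pileup of CTCF, in fragments on a log axis, at the 14 regions of the EMT loci with a peak in all 6 libraries, named by locus and distance of the summit from that gene's start site in kb (the first CDH1 region is the TANGO6 promoter). Each point is 1 library (CTRL grey, VPA red, symbol by replicate number). Circles, replicate 1, are high at the promoters on the left, and several are far below the other symbols on the right, as at CDH1 with 25 and 44 fragments.

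The core of the CTCF recognition sequence, a string of 12 positions of which 8 are fixed, was searched on both strands within 100 bp of each summit. It was found at 5 of the 37 CTCF regions of the 10 loci and at 4 of the 14 present in all 6 lists. In the whole lists 18.1 to 24.2% of CTCF peaks had it, and 0.754 to 0.877% of windows 2 kb away. These shares are of the peaks of single libraries. The share over all merged regions was not computed, so the counts at the 10 loci have no like figure beside them. One of the matches lies 2.59 kb inside VIM, at chr10:17230816-17230855, within an exon of a VIM transcript annotated with no defined coding sequence. It is shown because this site was bound in all 6 libraries beside the strongly acetylated VIM promoter, with pileups of 255, 512 and 407 fragments in CTRL and 326, 387 and 424 in VPA. The core, in capitals, is on the reverse strand, 6 bp from the summit.
VIM site chr10:17230816-17230855 (-): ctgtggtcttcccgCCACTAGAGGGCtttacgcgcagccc

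The 2 antibodies often met at the same places. Of the 38 H3K27ac regions of the 10 loci 13 shared bases with a CTCF region, which is 34.2% beside 33.4% of all H3K27ac regions. Of the 37 CTCF regions 17 shared bases with H3K27ac, which is 45.9% beside 28.4% of all CTCF regions. The CDH1 intron region marked by H3K27ac in VPA alone was one of them, and its CTCF summit had 489 and 463 fragments in CTRL replicates 2 and 3 and 387 and 445 in VPA replicates 2 and 3.

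A further 50 genes of the transition were examined by the same rules, of which 49 are on chromosomes 1 to 22 and 45 had an H3K27ac peak. In peak number 5 were higher in every VPA list and 0 lower, beside 12.2% and 0.175% of all genes. By role these were 1 of 16 epithelial genes, 4 of 11 mesenchymal genes, 0 of 8 transcription factor genes and 0 of 10 signalling genes. The higher calls at the epithelial genes CDH1 and EPCAM thus did not extend to epithelial genes as a group. KRT8, a simple epithelial keratin, had 2 peaks in each CTRL list and 4.67 on average in VPA. COL3A1 and COL1A1, which encode fibrillar collagens, went from 0.667 to 2.67 and from 2 to 3.33 peaks, and S100A4, a calcium-binding protein of fibroblasts, from 1 to 2.33. TAGLN, an actin-binding protein of smooth muscle, had 0 peaks in each CTRL list and 1 in each VPA list, and it was named after its values were seen. In covered length 16 of the 45 were higher and 0 lower, namely 7 epithelial, 7 mesenchymal, 0 transcription factor and 2 signalling genes, beside 31.6% of all genes. For CTCF 0 of 47 genes were called in either measure.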

How the data were processed

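HEK293T ChIP-seq peak lists (3 CTRL and 3 VPA libraries for each of H3K27ac and CTCF) were used. According to their methods and processing notes, the authors aligned reads to hg38 with Bowtie2 and called peaks with MACS3 (3.0.0a7) in each library separately at q 0.05; the use of inputs and of duplicates is not given in the sources used here. The deposited lists hold a score, a fold enrichment ratio at the summit, and −log10 p and −log10 q values. They give no read totals, so the depth is unknown, and counting errors were not computed.

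Summit pileup and local background were recovered from the deposited fold and −log10 p, and pileups came out whole within 0.05 fragments in 99.998 to 100% of peaks. Gene bodies were taken from GENCODE on hg38. Merged regions shared at least 1 bp. Peak numbers and covered lengths were compared with exact permutation tests over the 20 assignments of 6 lists. Log2 fold enrichment and log2 pileup were compared with limma 3.58.1 (R 4.3.3) with Benjamini-Hochberg adjustment. The limma code was run on simulated data with errors drawn independently for each library. That does not show how it behaves with the correlated deviations given below. Python 3.11.15 was used elsewhere. Deviations of same-numbered CTRL and VPA libraries correlated at 0.865, 0.585 and 0.591 for H3K27ac, and its replicate numbers were treated as pairs. CTRL numbers 1 and 3 correlated best with their own number and number 2 did not, so this pairing is uncertain.

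The genes and lists were chosen with earlier results of these data known. All 10 genes are named, and of the 50 further genes at most 4 per antibody and measure, those called with the largest difference, with TAGLN added after its values were seen. The pileup with block, without replicate 1 and without centring, the GC box search and the paired covered lengths were chosen after seeing the data. The 6 inputs were not analysed here.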

Additional observations from a re-analysis of the deposited data

How the results depend on the processing

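Presence of a peak depends on the calling threshold, on library quality and on the number of peaks called, and the lists hold no values below the threshold, so absence at the CDH1 and EPCAM sites means only that no peak was called. Changes are relative within each library, and no alternative can show a change shared by all regions.

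For H3K27ac peak number (2 of 10 genes higher, 0 lower), equal list lengths gave 1 higher and 1 lower, the gene body alone gave 1 higher (EPCAM, with CDH1 no longer called, beside 7.74% of all genes), and the replicate block gave 4 higher. With 50 kb either side CDH1, FN1 and SNAI1 were higher (beside 24.5%) and EPCAM was no longer called. For covered length (3 higher, 0 lower), the replicate block gave 7 higher, leaving out both replicate 1 libraries gave 8 higher and 1 lower (FN1), beside 76.5% and 1.99% of all genes, and leaving out single libraries gave 3 to 8 higher, with 8 without VPA replicate 1. With the gene body alone VIM was no longer called, its difference falling from 1550 to 140 bp. Regions with a peak in VPA alone numbered 5 instead of 2 without both replicate 1 libraries, and 2 to 5 when single libraries were left out, with 5 without VPA replicate 1.

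For H3K27ac at shared regions (0 called of 18407 by fold enrichment), limma called 1264 higher and 1119 lower with the replicate block, of which 1 and 2 were at the 10 loci. Summit pileup called 2145 higher and 3819 lower, with 3 and 4 at the loci. Pileup with the replicate block called 4150 and 5163, with 5 and 5 at the loci, pileup without both replicate 1 libraries 3585 and 6676, with 1 and 6, and pileup without centring 659 and 2262, with 0 and 4. The 1 higher region without replicate 1 was a ZEB2 intron region, and FN1, SNAI1 and SNAI2 were not called there. The ZEB2, CDH2, VIM and ZEB1 promoters were lower in each of these pileup fits, and every other fit of fold enrichment (no centring, quantile normalization, other filters and merging, a trend, single libraries left out) called 0 regions. The TWIST1 promoter change by fold enrichment ranged from -0.48 to 0.0322 when single libraries were left out, with 0.0322 without VPA replicate 1. The cause of these differences was not tested.

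For CTCF (0 of 10 genes called), the same-numbered libraries correlated at 0.340, -0.0451 and 0.477. Numbers 1 and 3 correlated best with their own number and number 2 did not, as for H3K27ac. The correlations were lower than for H3K27ac, and the numbers were not read as pairs. The replicate block gave 2 genes lower in peak number (CDH2 and ZEB1, beside 3.70% of all genes), and 1 higher and 4 lower in covered length (beside 7.53% and 16.9%). Without both replicate 1 libraries 1 gene was higher and 1 lower in peak number (beside 2.71% and 7.83%), and 1 higher and 4 lower in covered length (beside 12.1% and 22.7%). With 50 kb either side 1 gene, FN1, was higher in covered length (beside 0.331%). Leaving out single libraries gave 0 to 1 higher and 0 to 1 lower in peak number, 0 to 1 higher and 0 to 4 lower in covered length, and 0 to 1 regions in VPA alone. At equal list lengths 0 regions were in CTRL alone. Limma called 0 CTCF regions in every fit, the replicate block included. Small CTCF log2 changes turned sign at the CDH2 (-0.074), SNAI1 (-0.11) and SNAI2 (-0.042) promoters by pileup without both replicate 1 libraries and at SNAI1 (-0.067) and SNAI2 (-0.018) by pileup without centring. By fold enrichment with single libraries left out, CDH2 ranged from -0.29 to 0.62, VIM from -0.054 to 0.85 and SNAI1 from -0.17 to 0.57, each lowest without VPA replicate 1, and CDH2 was also below 0 without CTRL replicate 3.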
